A study of Mus musculus with 4 samples.

Results

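The subunits of the oxidative phosphorylation machinery were followed in RNA of tumour-infiltrating CD8+ T cells from mice with B16-GP33 tumours, at day 21 after implantation. The data comprised 2 libraries labelled EV, used here as the control, and 2 labelled ACSS2NLS. B16 is a melanoma line of mouse origin, GP33 a viral peptide seen by CD8+ T cells. ACSS2 is the enzyme that turns acetate into acetyl-CoA, and NLS commonly stands for nuclear localisation signal. All libraries share the tumour, the cell type and the day. The labels give no mouse strain, age or promoter of the construct and name no individual mice, so p-values cover no more than the spread among these libraries, possibly technical. Members were the protein-coding rows whose symbol names a subunit of complexes I to V or cytochrome c, with a mean of at least 1 FPKM (fragments scaled to exon length and to the library total) over the 4 libraries. Of 86 rows with such a name, 78 reached that level, among 9810 genes that did so in a table of 24537. They comprised 36 genes of complex I, 4 of complex II, 9 of complex III, 12 of complex IV, 16 of complex V and Cycs, which encodes cytochrome c.

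Oxidative phosphorylation takes place in the inner mitochondrial membrane. Complex I (NADH dehydrogenase) and complex II (succinate dehydrogenase) pass electrons to ubiquinone, complex III (the cytochrome bc1 complex) passes them to cytochrome c, and complex IV (cytochrome c oxidase) passes them to oxygen. Complexes I, III and IV pump protons, and complex V (ATP synthase) uses the proton gradient to make ATP. Each complex other than complex II also holds subunits encoded by mitochondrial DNA, which are not analysed here. T cells draw on this respiration for memory and persistence, and exhausted T cells in tumours are known for poor mitochondrial function.

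Acss2 served as the check of the labels. It was at 3.66 and 3.92 FPKM in the EV libraries and at 80.7 and 86.3 FPKM in the ACSS2NLS libraries. Each library held 46000000 to 49300000 tags, with 39.6% to 41.9% counted on sense exons. The 8 T cell markers were all present and summed to 2377, 1986, 2185 and 1756 FPKM in EV replicates 1 and 2 and ACSS2NLS replicates 1 and 2. In the same order, 10 melanoma markers summed to 5.62, 39.4, 11.96 and 140.7 FPKM and 18 myeloid markers to 191.7, 716, 336.6 and 1087 FPKM. Means reached 1 FPKM for 6 of the melanoma and 17 of the myeloid markers. Gpr143 alone of the melanoma list and S100a9 alone of the myeloid list were listed at 0, each in ACSS2NLS replicate 1. Both lists were higher in replicate 2 than in replicate 1 of either group. In such bulk samples, fewer cells of a type and less RNA per cell cannot be told apart.

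Transcript levels within the machinery differed far more between subunits than between libraries. FPKM is a value per length, so genes can be set side by side, though only roughly. Sequence shared with other genes and the exon length used for scaling limit the comparison. The median subunit stood at 58.6 FPKM, against 7.43 FPKM for all genes tested. By complex the median level was 53.5 FPKM for complex I, 65.9 FPKM for complex II, 58.2 FPKM for complex III, 116.4 FPKM for complex IV and 88.7 FPKM for complex V. The highest member was Atp5b, the catalytic beta subunit of ATP synthase, with a mean of 371.7 FPKM over the 4 libraries. Cox4i1 followed at 248.4 FPKM and Cox8a at 230.7 FPKM, both nuclear-encoded subunits of complex IV. Atp5g3, a gene for the c ring that rotates in the membrane, had 195.6 FPKM, and Atp5a1, the alpha subunit, had 184.4 FPKM.

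**Figure D1:**
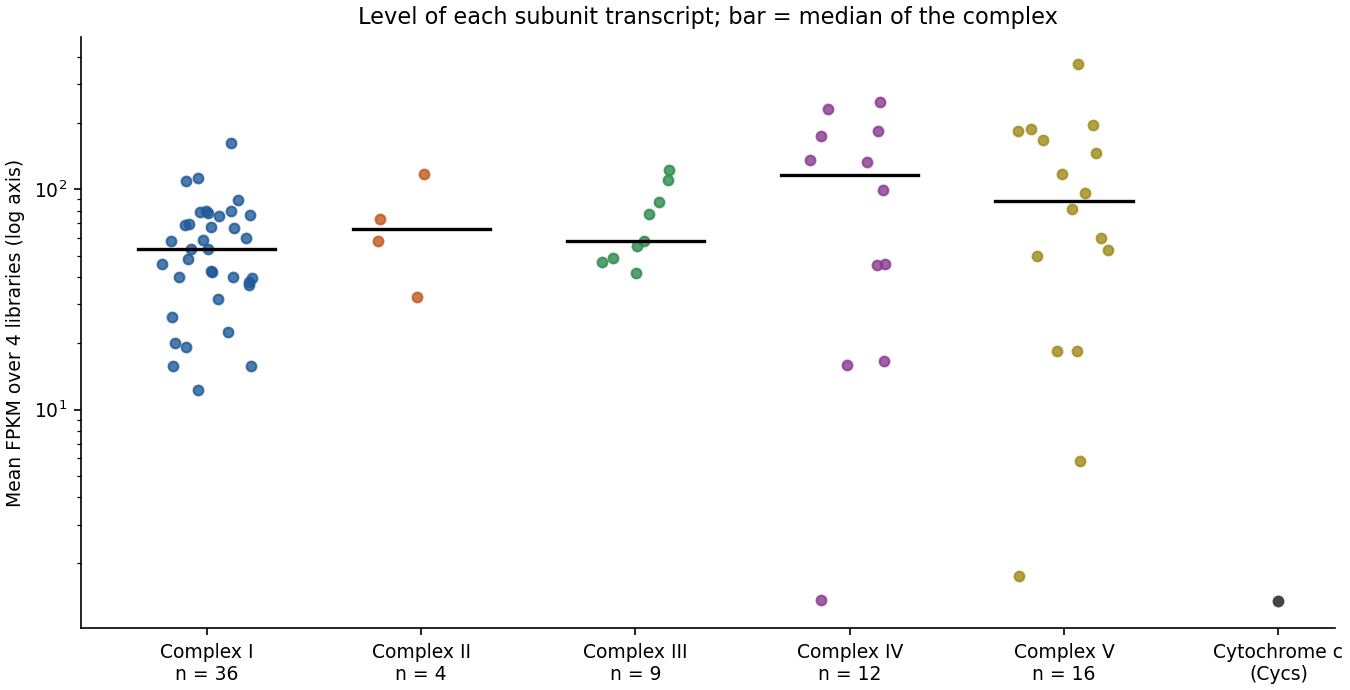
Mean FPKM over the 4 libraries (vertical log axis) of each of the 78 members, by complex; each point is a gene and the bar is the median of its complex. Complex IV has the highest median, 116.4 FPKM, and Cycs is the lowest point, at 1.35 FPKM.

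Several subunits exist as alternative genes, and a single form led in each set. In complex IV, Cox4i1 was at 248.4 FPKM and its lung and hypoxia form Cox4i2 at 0.209 FPKM. Cox6a1 was at 173.9 FPKM and the heart and muscle form Cox6a2 at 0.391 FPKM. Cox7a2 was at 99.6 FPKM, while Cox7a1, the muscle form, was at 0.955 FPKM. Cox6b1 was at 183.5 FPKM and its testis form Cox6b2 at 1.37 FPKM. Cox8a had 230.7 FPKM, and Cox8b, Cox8c and Cox7b2 were listed at 0 in all 4 libraries. These are the usual non-muscle, non-germline forms. Ndufa4l2, a hypoxia-induced relative of Ndufa4, was at 0.145 FPKM. In the c ring, Atp5g3 led with 195.6 FPKM over Atp5g1 with 18.4 FPKM and Atp5g2 with 0.678 FPKM.

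The level limit of 1 FPKM thus left out Cox4i2, Cox6a2, Cox7a1, Cox7b2, Cox8b, Cox8c, Ndufa4l2 and Atp5g2. Just inside it lay Cycs at 1.35 FPKM and Cox6b2 at 1.37 FPKM, and just outside it lay Cox7a1 at 0.955 FPKM and Atp5g2 at 0.678 FPKM. The low value of Cycs stands apart from its place in the chain, since Cyc1, the complex III subunit that passes electrons to it, was at 76.8 FPKM. Of the 50-base windows of the Cycs transcript, 28.2% also occur in transcripts of 43 other genes in the GENCODE set, and for Atp5g2 the share is 87.4%. Shared windows made up 68.5% of Atp5l, 53.8% of Ndufa12, 53.0% of Cox7c, 50.5% of Atp5h, 43.2% of Uqcrb, 41.2% of Ndufs5 and 37.0% of Ndufb4, and 21.1% to 35.8% of Ndufs3, Cox5b, Atp5f1 and Cox6c. The handling of reads from such windows is not stated in the labels or headers, so the levels of these 13 genes are uncertain. The share for Atp5g1, 10.6%, was taken on a GENCODE transcript of 4715 bases, against 791 bases counted. Its level is therefore uncertain too. Some names also cover proteins that are not subunits of the complex in the name. RefSeq now calls Atp5sl Dmac2 and Atp5s Dmac2l, and Atp5f1, a true stalk subunit, Atp5pb. Ndufa4 is now placed in complex IV, and Cox7a2l helps complexes join into supercomplexes.

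The promoters of the members are shown as a description, and their part in differences between libraries was not tested. RefSeq promoters (build GRCm38.p6, 250 bases before to 50 after the gene start) were matched for 63 of the 78 members and for 7317 of all genes tested. NRF1, a regulator of respiratory genes, binds a palindrome, shown in capitals in its windows. Its letters occurred in 6.35% of member promoters (4 of 63) and in 2.34% of all matched promoters. ESRRA, the estrogen-related receptor alpha, binds sites with TGACCTTG, searched on both strands, which occurred in 6.35% (4 of 63) and 0.998%. The GABPA motif CCGGAAG occurred in 25.4% and 22.5%, and the YY1 motif ATGGCGGC in 11.1% and 5.99%. GABPA and YY1 were also searched on both strands, and no motif contains another. Upstream windows around the NRF1 and ESRRA matches follow, 5′ to 3′ on the gene's strand, with the motif in capitals.
Ndufa11 (NRF1, chr17:56717672-56717741, plus strand): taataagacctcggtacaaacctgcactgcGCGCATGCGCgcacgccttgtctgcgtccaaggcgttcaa
Cox6a1 (NRF1, chr5:115349081-115349150, minus strand): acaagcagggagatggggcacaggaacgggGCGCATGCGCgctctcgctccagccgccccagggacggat
Atp5k (NRF1, chr5:108434410-108434479, minus strand): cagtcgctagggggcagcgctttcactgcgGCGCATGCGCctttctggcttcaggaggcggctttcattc
Ndufs5 (ESRRA, chr4:123718377-123718436, minus strand): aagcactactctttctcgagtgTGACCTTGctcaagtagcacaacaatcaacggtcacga
Atp5g3 (ESRRA, chr2:73911341-73911408, minus strand): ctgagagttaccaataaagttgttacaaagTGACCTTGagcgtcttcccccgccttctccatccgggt
Atp5l (ESRRA, chr9:44920743-44920785, minus strand): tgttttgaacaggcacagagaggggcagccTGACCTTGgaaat
The matches of Uqcrc1 for NRF1 and of Sdhd for ESRRA lay at or after the gene start and are not printed. The 4 members with the NRF1 letters had a median log2 change of 0.10 and the other matched members 0.099, and the 4 with the ESRRA letters had 0.059 against 0.11. A match is a description of letters and not a measured binding site.

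The comparison of ACSS2NLS with EV asked how expression differed between the ACSS2NLS and the EV cells, in a study of exhausted CD8+ T cells. Log2 changes are differences of group means of log2(FPKM + 1), ACSS2NLS less EV, a scale that understates the change of low genes. Of the 78 members, 63 had a higher and 15 a lower mean in ACSS2NLS, with a median log2 change of 0.095. Over all 9810 genes, 53.2% had a higher mean and the median was 0.015. No member passed the limma-trend test at an adjusted p of 0.05. The smallest adjusted p was 0.792, for Cox6b2, a member through its EV values alone. In the same test 0.0204% of all genes passed upward and 0.0% downward. At an unadjusted p under 0.05, 2 members were higher, Uqcrb and Ndufa4, and 1 was lower, Cox6b2, against 3.1% of all genes higher and 2.87% lower. The smallest p an exact two-sided permutation test could reach with 2 libraries a group is 0.333.

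Both ACSS2NLS libraries exceeded both EV libraries for 16 members (20.5%), close to the 19.3% of all genes. Both lay below both EV libraries for 3 members (3.85%), Ndufv1, Uqcrc1 and Cox6b2, while 18.1% of all genes did so. A single library stood out. ACSS2NLS replicate 1 was the highest library for 62 of 78 members (79.5%), and it was the highest for 24.3% of all genes. ACSS2NLS replicate 2 was the highest for 5 members and the lowest for 31 (39.7%), against 33.7% and 21.2% of all genes. The median difference from the EV mean was 0.26 in ACSS2NLS replicate 1 and -0.036 in ACSS2NLS replicate 2 on the log2 scale. Over all genes tested these medians were -0.021 and 0.037.

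**Figure D2:**
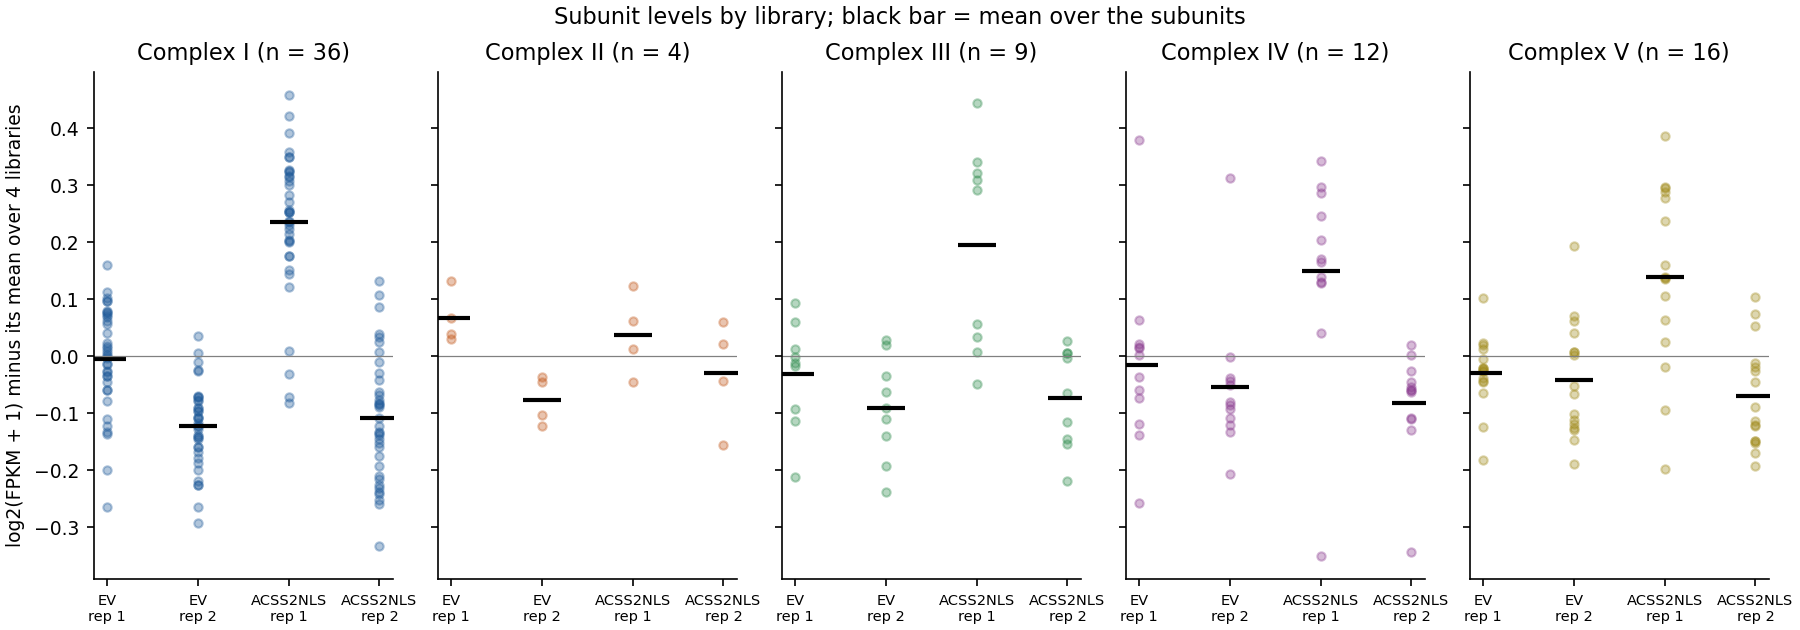
Level of each subunit in each library as log2(FPKM + 1) minus its mean over the 4 libraries (vertical axis), by complex; points are genes and black bars are means over the subunits. The mean of complex I is 0.23 in ACSS2NLS replicate 1 and -0.11 in ACSS2NLS replicate 2, and that of complex II is 0.038 and -0.029.

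The median member was lower by 0.29 in ACSS2NLS replicate 2 than in ACSS2NLS replicate 1, a larger difference than the 0.095 between the groups. Complex I averaged -0.0051, -0.12, 0.23 and -0.11 relative to its mean over the libraries, in the order EV replicate 1, EV replicate 2, ACSS2NLS replicate 1, ACSS2NLS replicate 2. Complex III averaged -0.031, -0.091, 0.20 and -0.073 in the same order. Complex IV averaged -0.015, -0.053, 0.15 and -0.081, and complex V -0.029, -0.041, 0.14 and -0.070. Complex II had its highest mean in EV replicate 1, with 0.067, -0.077, 0.038 and -0.029. Replicate 2 was thus lower than replicate 1 in both groups for every complex, as were the summed T cell markers, while the melanoma and myeloid sums given above were higher there. The part of other cells in these differences was not tested.

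Complex I had 30 of 36 genes higher in mean, with a median log2 change of 0.098. Its core and accessory subunits are given separately. The 7 nuclear core subunits carry the flavin and the iron-sulphur clusters or line the path to ubiquinone. They had a median log2 change of 0.068, and ACSS2NLS replicate 1 was the highest library for 4 of 7. For the 29 accessory subunits, which surround and stabilise the core, the median was 0.099, and ACSS2NLS replicate 1 was the highest for 28 of 29. Ndufv1, the flavin-binding subunit that takes electrons from NADH, was at 44.5 and 39.9 FPKM with EV, against 37.4 and 37.4 with ACSS2NLS (log2 change -0.17 ± 0.11, SE, n = 2 per group). It was lower in both ACSS2NLS libraries. Its partner Ndufv2, an iron-sulphur subunit, was at 31.0 and 27.7 FPKM with EV, against 37.1 and 31.4 with ACSS2NLS (0.21 ± 0.13), higher in both.

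Ndufs7, which holds the last iron-sulphur cluster before ubiquinone, was at 53.0 and 53.6 FPKM with EV, against 62.9 and 62.3 with ACSS2NLS (0.23 ± 0.11). Here the ACSS2NLS libraries lay close together and above both EV libraries. Ndufs8, another iron-sulphur subunit, was at 69.6 and 71.2 FPKM with EV, against 94.3 and 68.4 with ACSS2NLS, so its change of 0.19 ± 0.18 rested on ACSS2NLS replicate 1. Without that library it was -0.041. Ndufs1, the largest subunit, had 21.7 and 22.2 FPKM with EV, against 21.9 and 23.8 with ACSS2NLS. The groups overlapped, as they did for Ndufs3 (19.7, 17.7, 22.4 and 17.2 FPKM in the same order), a core subunit with 35.8% shared windows.

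Among the accessory subunits by name, Ndufa4, now placed in complex IV, had the largest difference. It was at 92.8 and 102.5 FPKM with EV, against 133.2 and 122.4 with ACSS2NLS, with both ACSS2NLS libraries above both EV libraries (log2 change 0.39 ± 0.13, limma unadjusted p = 0.0266, adjusted p = 0.81). Ndufa6, at the matrix arm, was at 39.1 and 40.2 FPKM with EV, against 57.7 and 45.3 with ACSS2NLS (0.36 ± 0.15, adjusted p = 0.81 in limma). Ndufa5 followed with 37.8 and 35.6 FPKM with EV, against 56.1 and 39.7 with ACSS2NLS. For Ndufa6 and Ndufa5 most of the difference lay in ACSS2NLS replicate 1, and without it the log2 change of Ndufa6 was 0.19. Ndufb7, the most abundant complex I transcript, shows the spread between replicates, with 171.2 and 150.2 FPKM with EV, against 201.0 and 126.9 with ACSS2NLS. Its ACSS2NLS libraries were the highest and the lowest of the 4, and its log2 change was -0.0057 ± 0.24. At the other end of the list, Ndufa10, of the membrane arm, was at 38.7 and 35.9 FPKM with EV, against 36.8 and 34.96 with ACSS2NLS (-0.054 ± 0.11).

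Complex II had 2 genes higher and 2 lower, with a median log2 change of -0.0073. Its 4 subunits are all nuclear-encoded, and the enzyme also belongs to the citric acid cycle. Sdha, the flavoprotein that oxidises succinate, was at 59.6 and 56.5 FPKM with EV, against 56.5 and 60.9 with ACSS2NLS. Sdhb, the iron-sulphur subunit, was at 122.7 and 114.1 FPKM with EV, against 127.6 and 105.0 with ACSS2NLS. The membrane anchor Sdhc was at 33.2 and 29.6 FPKM with EV, against 33.8 and 32.8 with ACSS2NLS. The other anchor, Sdhd, had 80.4 and 68.2 FPKM against 73.9 and 71.1 FPKM. The groups overlapped for all 4 genes, and log2 changes ran from -0.031 ± 0.15 for Sdhb to 0.083 ± 0.12 for Sdhc.

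Complex III had 8 of 9 genes higher in mean, the median log2 change being 0.12. Uqcrb, the ubiquinone-binding protein, was at 41.1 and 40.3 FPKM with EV, against 65.3 and 47.9 with ACSS2NLS, with 43.2% of its windows shared. Both ACSS2NLS libraries were higher for Uqcrb (0.45 ± 0.17, limma unadjusted p = 0.0416, adjusted p = 0.81). Without ACSS2NLS replicate 1 its log2 change was 0.23, and without ACSS2NLS replicate 2 it was 0.67. Uqcrh, the hinge protein that helps cytochrome c dock, was at 87.0 and 75.3 FPKM with EV, against 108.0 and 77.9 with ACSS2NLS, and the groups overlapped. Uqcrc1, a core protein, was at 117.7 and 111.8 FPKM with EV, against 106.7 and 105.5 with ACSS2NLS, lower in both ACSS2NLS libraries (-0.11 ± 0.12). The other core protein, Uqcrc2, had 41.6 and 40.7 FPKM against 41.9 and 42.5 FPKM (0.035 ± 0.10).

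The catalytic subunits of complex III had small differences. Uqcrfs1, the Rieske iron-sulphur protein, was at 57.9 and 52.0 FPKM with EV, against 56.8 and 55.4 with ACSS2NLS (0.031 ± 0.12). Cyc1, cytochrome c1, was at 72.0 and 78.3 FPKM with EV, against 79.9 and 77.1 with ACSS2NLS (0.064 ± 0.12). The groups overlapped for both. Cycs was at 0.933 and 1.18 FPKM with EV, against 1.999 and 1.27 with ACSS2NLS (0.35 ± 0.21, adjusted p = 0.822 in limma), on 131 tags or more per library. Without ACSS2NLS replicate 1 its log2 change was 0.15. The ACSS2NLS values were higher, but the level is uncertain for the shared windows given above.

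Complex IV had 11 of 12 genes higher in mean, the median log2 change being 0.097. Ndufa4, given above with complex I by its name, is not counted among these 12. Cox7b was at 41.2 and 39.2 FPKM with EV, against 57.8 and 45.5 with ACSS2NLS (0.34 ± 0.15). Cox7c was at 13.1 and 15.3 FPKM with EV, against 19.5 and 16.1 with ACSS2NLS (0.31 ± 0.15), with 53.0% of its windows shared. In both of these membrane subunits the groups did not overlap and ACSS2NLS replicate 1 was the highest. Without that library the log2 change was 0.17 for Cox7b and 0.17 for Cox7c. Cox4i1, which binds ATP as a regulator, was at 250.7 and 232.6 FPKM with EV, against 273.2 and 237.2 with ACSS2NLS (0.076 ± 0.15). Cox5a was at 139.4 and 126.0 FPKM with EV, against 137.1 and 130.8 with ACSS2NLS, and Cox5b, which binds zinc, was at 45.5 and 41.0 FPKM with EV, against 53.6 and 41.1 with ACSS2NLS. The groups overlapped for these 3 genes.

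Cox6b2 was the exception in complex IV. It was at 1.99 and 1.86 FPKM with EV, against 0.803 and 0.811 with ACSS2NLS, so the replicates lay close and the groups far apart (log2 change -0.69 ± 0.16, limma unadjusted p = 0.00679, adjusted p = 0.792). As few as 18 tags in a library support these values. Both ACSS2NLS values lay below the limit of 1 FPKM, so Cox6b2 is a member through its EV values alone. Its p-values are therefore given as a description. With the replicate number as a block Cox6b2 was the sole member that passed (limma adjusted p = 0.0252). In that fit 2.33% of all genes passed upward and 1.75% downward. The main form Cox6b1 was at 178.2 and 169.5 FPKM with EV, against 210.7 and 175.4 with ACSS2NLS (0.14 ± 0.15), and its groups overlapped. Cox6b2 thus made up little of the transcripts for this subunit in every library.

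Complex V, counted by name, had 11 of 16 genes higher in mean, the median log2 change being 0.083. The 5 lower genes include Atp5s and Atp5sl, now called Dmac2l and Dmac2. The F1 head, whose 5 genes include the catalytic ones, had 2 higher and 3 lower (median -0.020). Atp5b was at 376.4 and 389.1 FPKM with EV, against 322.9 and 398.4 with ACSS2NLS (-0.093 ± 0.18), and Atp5a1 was at 185.9 and 185.2 FPKM with EV, against 172.6 and 194.0 with ACSS2NLS (-0.020 ± 0.14). For these alpha and beta subunits ACSS2NLS replicate 1 was the lowest library and replicate 2 the highest. Atp5c1, the rotating gamma shaft, was at 93.4 and 92.8 FPKM with EV, against 103.6 and 95.5 with ACSS2NLS (0.095 ± 0.12), higher in both ACSS2NLS libraries. Atp5e, the small epsilon subunit, was at 158.2 and 153.1 FPKM with EV, against 203.7 and 152.0 with ACSS2NLS.

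The 4 genes of the peripheral stalk, which holds the F1 head still, all had a higher mean (median 0.12), but in none were the groups apart. Atp5j, coupling factor 6 of the stalk, was at 179.8 and 162.7 FPKM with EV, against 242.9 and 166.9 with ACSS2NLS (0.23 ± 0.21). In the c ring, Atp5g3 was at 179.2 and 196.5 FPKM with EV, against 204.1 and 202.6 with ACSS2NLS (0.12 ± 0.13), higher in both ACSS2NLS libraries. Atp5g1 was at 18.3 and 17.5 FPKM with EV, against 20.6 and 17.2 with ACSS2NLS, and its groups overlapped. Atp5sl, counted in complex V by its name only, had the lowest change there after Atp5b. It was at 5.71 and 6.13 FPKM with EV, against 5.74 and 5.74 with ACSS2NLS (-0.037 ± 0.13).

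**Figure D3:**
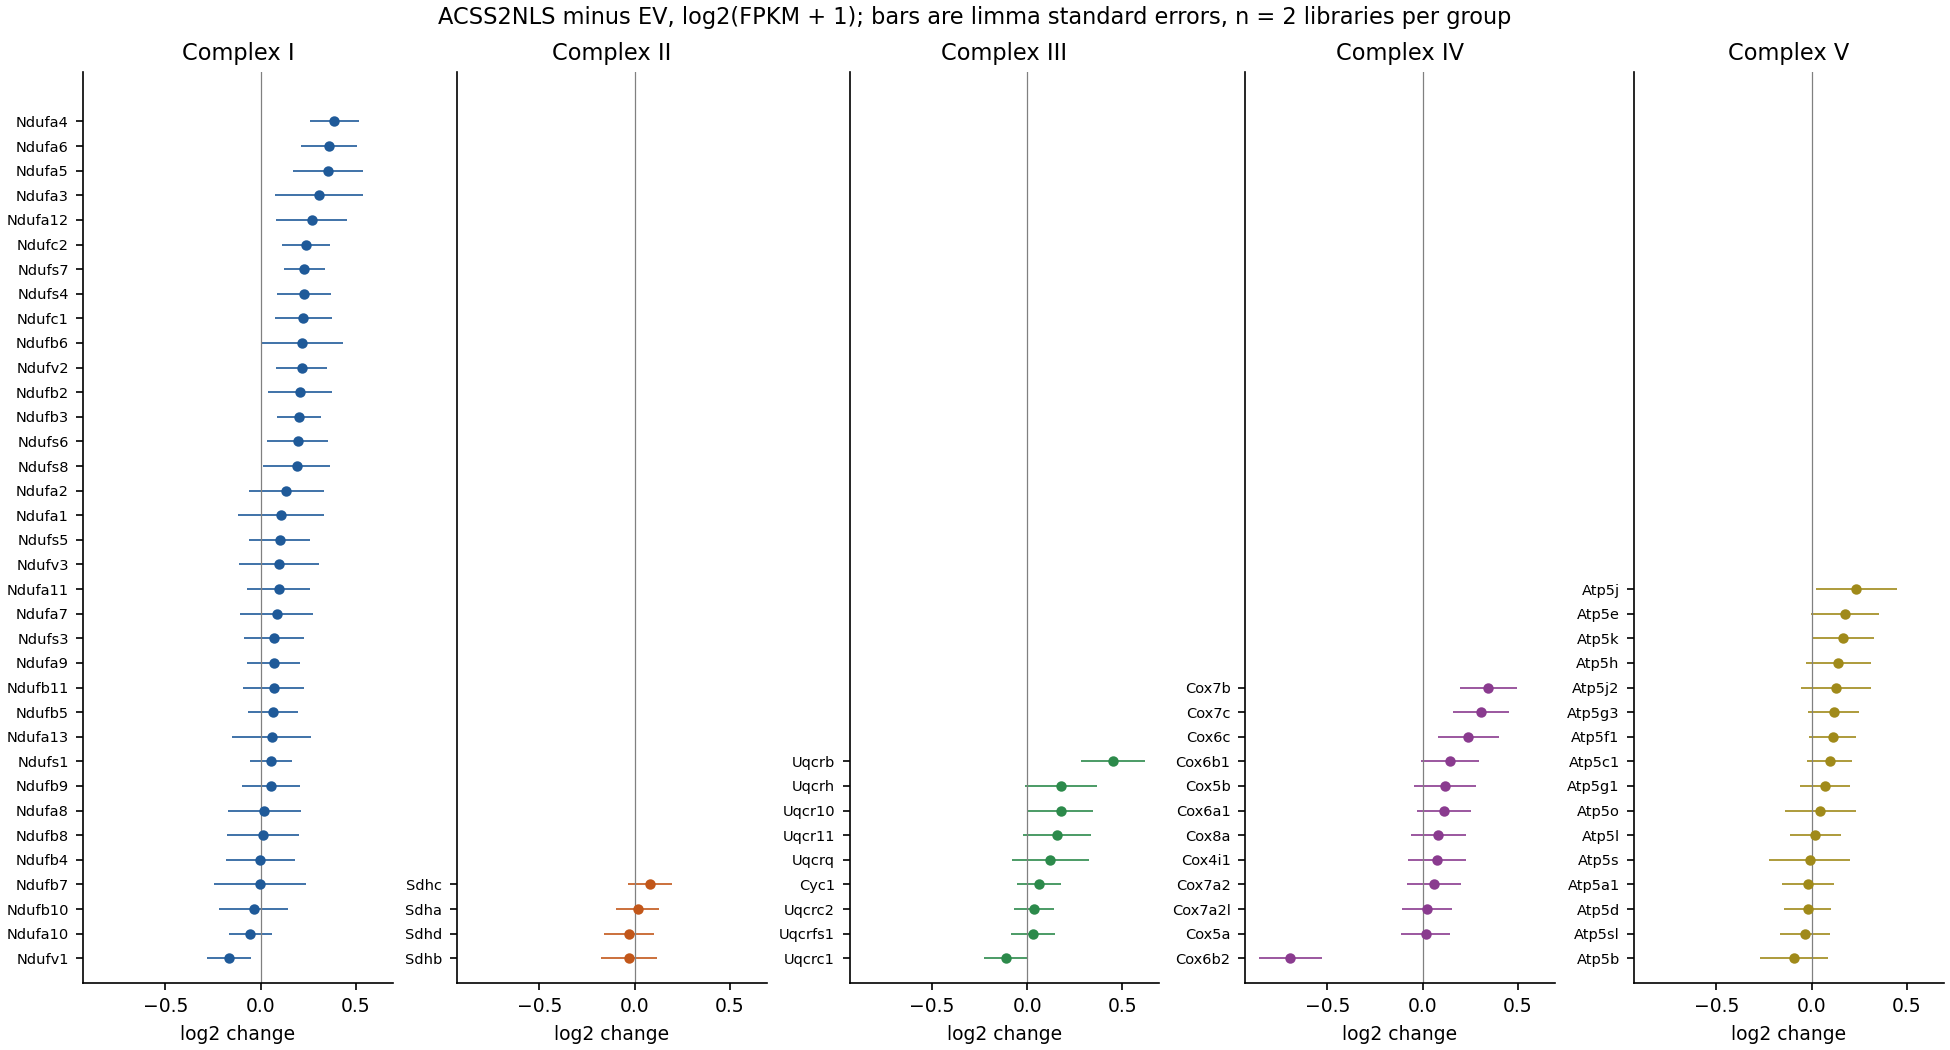
Log2 change of the genes of complexes I to V, apart from 1 whose values are not reported (horizontal axis, ACSS2NLS minus EV on the log2(FPKM + 1) scale) with its limma standard error, 2 libraries per group, ordered within each complex. Most points lie above 0, many with errors that reach it and others, such as Ndufs7 and Cox7b, with errors that do not. Cox6b2 at -0.69 and Uqcrb at 0.45 are the extremes.

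The members are short transcripts, and the shorter of them were more often highest in ACSS2NLS replicate 1. The median exon length was 680.5 bases for the members and 2508 bases for all genes tested. It was 649 bases in complex I, 1225 in complex II, 1185 in complex III, 552 in complex IV and 777 in complex V, and within complex I it was 1530 for the core and 597 for the accessory subunits. Of the 52 members under 1000 bases, 49 were highest in ACSS2NLS replicate 1, with a median of 0.33 above the EV mean on the log2 scale. Of all genes under 1000 bases, 55.0% were highest there, with a median of 0.19. Of the 26 longer members, 13 were highest there, with a median of 0.096, against 19.9% and -0.042 for all genes of that length. Across the 78 members, Pearson's r of log2 exon length with the difference of ACSS2NLS replicate 1 from the EV mean was -0.46 (Spearman's rho -0.57). The genes share the same libraries, and no test was made on them. Over all 9810 genes r was -0.2.

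The same trend was present across all genes. In the shortest of 8 equal bins of all genes tested by exon length (27 to 1005 bases, 1227 genes, 52 of them members), the median difference from the EV mean was 0.19 in ACSS2NLS replicate 1. In the longest bin (4993 to 19770 bases, no member) it was -0.095. In ACSS2NLS replicate 2 these medians were -0.0023 and 0.14. The EV libraries showed less of a trend, with medians of replicate 2 minus replicate 1 of 0.012 in the shortest and 0.062 in the longest bin. With a smooth trend on exon length subtracted from each library, a step chosen after the data were seen, 37 of 78 members had a higher mean in ACSS2NLS and the median log2 change was -0.0076. The medians were then 0.021 for complex I, -0.011 for complex II, 0.021 for complex III, -0.036 for complex IV and -0.019 for complex V. On that scale the log2 change was 0.28 for Uqcrb, 0.21 for Ndufa4, 0.29 for Cox7b, 0.21 for Ndufa6, 0.21 for Ndufv2 and -0.88 for Cox6b2. Other named genes kept less of theirs. Ndufs7 had 0.13 instead of 0.23, Cox7c 0.12 instead of 0.31, Atp5j 0.058 instead of 0.23 and Uqcrh 0.021 instead of 0.18.

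**Figure D4:**
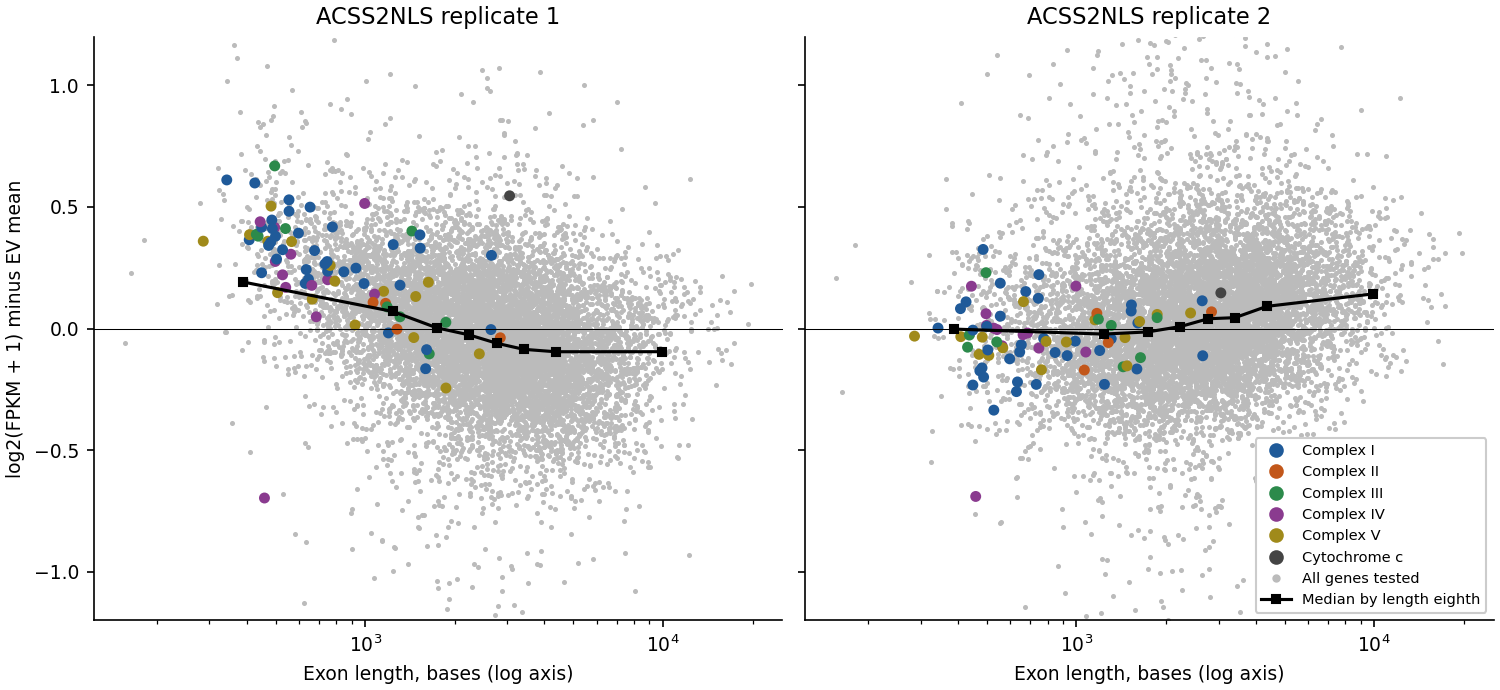
Difference of each ACSS2NLS library from the EV mean in log2(FPKM + 1) (vertical axis, shown from -1.2 to 1.2) against exon length in bases (horizontal log axis, from 150 bases). Coloured points are the members, grey points all genes tested and black squares the medians of 8 length bins. In ACSS2NLS replicate 1 the medians run from 0.19 in the shortest bin to -0.095 in the longest, and in replicate 2 from -0.0023 to 0.14.

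The result also depended on which libraries were used. Without ACSS2NLS replicate 1, 31 of 78 members had a higher mean and the median log2 change was -0.036. Without ACSS2NLS replicate 2, 67 did and the median was 0.26. Without EV replicates 1 and 2, the medians were 0.16 and 0.059. No member passed in any of these 4 fits, although 24 (30.8%) had an unadjusted p under 0.05 without ACSS2NLS replicate 2, against 8.63% of all genes. That fit holds a single ACSS2NLS library, assumed to vary like the EV pair. Under other pseudocounts, other limits on mean FPKM and quantile normalization, the medians of complexes I, III, IV and V stayed above 0 and that of complex II ran from -0.0073 to 0.040.

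**Figure D5:**
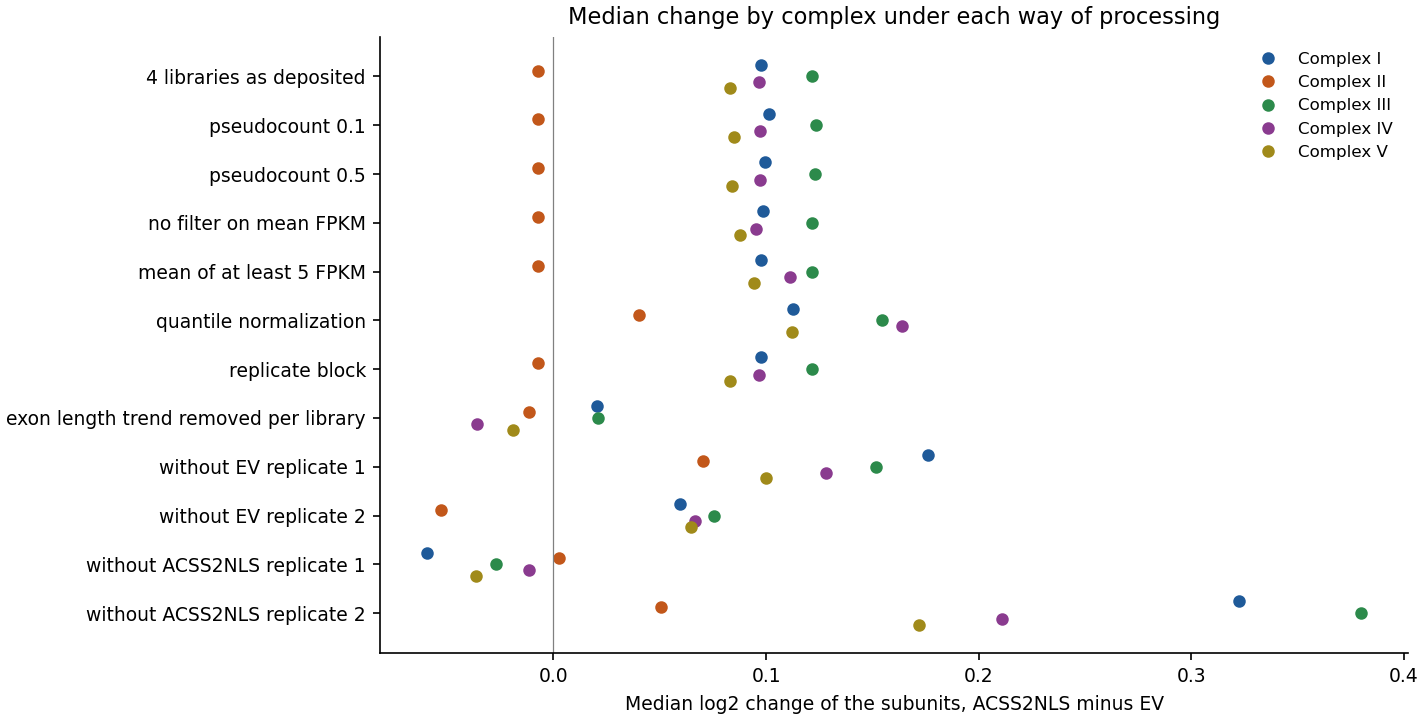
Median log2 change of the subunits of each complex (horizontal axis, ACSS2NLS minus EV) under each way of processing (vertical axis). Complexes I, III, IV and V lie between 0.083 and 0.12 with 4 libraries as deposited, and between -0.059 and -0.011 without ACSS2NLS replicate 1.

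Assembly factors build the complexes without being part of them. Of 53 listed, 49 were tested and 36 (73.5%) had a higher mean, against 53.2% of all genes. The median log2 change was 0.10, against 0.015. In the limma-trend test 0 passed, and 2 had an unadjusted p under 0.05, against 5.97% of all genes. Taco1, which promotes translation of a mitochondrially encoded complex IV subunit, was at 1.67 and 1.495 FPKM with EV, against 3.17 and 3.05 with ACSS2NLS (0.67 ± 0.15, limma unadjusted p = 0.00603, adjusted p = 0.775). Tmem70, needed to build ATP synthase, was at 9.90 and 10.1 FPKM with EV, against 13.4 and 13.4 with ACSS2NLS (0.39 ± 0.11, limma unadjusted p = 0.0158, adjusted p = 0.81). In both genes, named for the smallest p in their lists, the replicates were close and the groups apart. Fmc1, another factor of complex V, was at 21.6 and 19.3 FPKM with EV, against 27.7 and 21.7 with ACSS2NLS (0.25 ± 0.15). For complex I, the assembly gene Tmem126b was at 5.88 and 5.79 FPKM with EV, against 8.70 and 7.02 with ACSS2NLS (0.37 ± 0.15), and Ndufaf4 had a log2 change of 0.29 ± 0.15.

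Uqcc3 and Bcs1l of complex III had log2 changes of 0.27 ± 0.18 and 0.14 ± 0.15, and Cox19 of complex IV had 0.26 ± 0.12. For complex II, Sdhaf4 had 0.24 ± 0.21 and Sdhaf1 had -0.23 ± 0.24. Of 6 companion genes outside the name rule, 5 (83.3%) had a higher mean, against 53.2% of all genes. In limma 0 passed, and 0 had an unadjusted p under 0.05. Ndufab1, the mitochondrial acyl carrier protein that is also a complex I subunit, was at 6.09 and 5.78 FPKM with EV, against 7.83 and 6.86 with ACSS2NLS. 2010107E04Rik, which encodes a small ATP synthase protein, was at 68.2 and 75.0 FPKM with EV, against 96.1 and 79.5 with ACSS2NLS.

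Regulators of mitochondrial genes form the last list. Of 15 listed, 14 were tested, with 9 (64.3%) higher and 5 lower in mean, against 53.2% of all genes higher. The median log2 change was 0.11, against 0.015. In the limma-trend test 0 passed, and 1 had an unadjusted p under 0.05, against 5.97% of all genes. Tfb1m, which methylates mitochondrial ribosomal RNA, was at 1.82 and 2.10 FPKM with EV, against 2.86 and 3.18 with ACSS2NLS (0.44 ± 0.16, limma unadjusted p = 0.0349, adjusted p = 0.81). Esrra was at 3.23 and 3.44 FPKM with EV, against 3.99 and 4.90 with ACSS2NLS (0.32 ± 0.16). ACSS2NLS replicate 2 was the highest library for 9 of these 14 genes, against 33.7% of all genes, and ACSS2NLS replicate 1 for 3 (21.4%), against 24.3%. Their median exon length was 2934 bases.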

How the data were processed

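RNA from 2 EV and 2 ACSS2NLS libraries was analysed. Per the labels' protocols, RNA came from an RNeasy Plus Micro kit, and SMART-Seq v4, a kit for low RNA input, gave the libraries. The submitters' processing notes name mm10, STAR 2.5.3a and HOMER. Per the file headers, the authors counted sense tags over exons of RefSeq genes with HOMER and deposited them as FPKM, normalized for exon length and library total. The column names Acss2WT and Acss2OE were read as EV and ACSS2NLS, and their numbers as the replicate numbers of the titles. The headers name more HOMER tag directories than there are columns, so this reading rests on the names alone. The labels do not state whether strand was kept, so reads of antisense neighbours cannot be told apart. An antisense exon overlaps 24 of the 78 members, and their median log2 change was 0.068 against 0.10 for the rest.

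FPKM are not counts, so limma-trend (limma 3.58.1, R 4.3.3) was run on log2(FPKM + 1), two-sided, over 9810 genes (mean FPKM at or above 1), adjusted by Benjamini-Hochberg, with 0.05 as the threshold. On simulated data for this comparison (9810 genes, 200 changed), it recovered 38.7% of log2 changes of 1 and 91.8% of changes of 2. A simulated dataset held a mean of 6.5 false calls. With 200 genes changed there, this number cannot be set against the 2 genes called in the data. FPKM times exon length gave whole tags for 100.0% of values checked within a tolerance of 0.1, over genes of 500 to 2000 bases, which gave the library totals. The chi-square per degree of freedom was 40.1 for the EV pair and 60.7 for the ACSS2NLS pair, far beyond sampling noise, so all 4 libraries were counted. Shared windows were counted on the GENCODE transcript nearest in length among those tied to the RefSeq entry, which can differ from the counted length. The 12 members with over 20% shared windows had a median log2 change of 0.13, against 0.083 for the other 66. Named genes were the catalytic subunits, the 2 largest changes each way per complex, paired isoforms, and the 2 smallest p in each further list; Ndufa5, Ndufb7 and genes named only for level, shared windows or motifs were chosen after their values were seen. Values of 1 named gene are not reported here, though it stays in the fits, counts and medians. Members and lists were chosen with earlier results of these data known. Alternatives were pseudocounts of 0.1 and 0.5, no level limit or 5 FPKM, quantile normalization, a replicate block, each library left out and, added later, an exon length trend (lowess, span 0.3) removed per library.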

Additional observations from a re-analysis of the deposited data

How the results depend on the processing

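The number of genes that passed upward was 2 with the deposited scaling and 38 with no limit on mean FPKM, and 0 and 4 passed downward. The titles number the replicates alike in both groups. With the replicate number as a block, 229 genes passed upward and 172 downward (2.33% and 1.75% of those tested). Taco1 was among them (log2 change 0.67, limma adjusted p = 0.0246). Cox6b2 passed as well (-0.69, limma adjusted p = 0.0252), but it is a member through its EV values alone. That fit has 1 residual degree of freedom, and nothing in the labels ties equal numbers to a shared mouse or day; same-numbered libraries deviated together with a correlation of 0.58 across genes. Leaving out a library gave 0 to 9 genes passing downward, the 9 without EV replicate 1. Where an arm keeps a lone library, its spread is assumed to be that of the other group.

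Leaving out 1 library at a time, the median log2 change ran from -0.059 to 0.32 for complex I, -0.053 to 0.071 for complex II, -0.027 to 0.38 for complex III, -0.011 to 0.21 for complex IV, -0.036 to 0.17 for complex V and -0.036 to 0.26 for all members, with 31 to 68 members higher. The log2 change of single genes ran from -0.0043 to 0.11 for Ndufs1, -0.11 to 0.25 for Ndufs3, -0.041 to 0.42 for Ndufs8, -0.038 to 0.069 for Sdha, -0.17 to 0.11 for Sdhb, -0.15 to 0.088 for Sdhd, -0.045 to 0.11 for Uqcrfs1 and -0.055 to 0.41 for Uqcrh. It ran from -0.025 to 0.18 for Cox4i1, -0.057 to 0.087 for Cox5a, -0.071 to 0.31 for Cox5b, -0.081 to 0.20 for Cox7a2, -0.097 to 0.14 for Cox7a2l and -0.0043 to 0.17 for Cox8a. It ran from -0.10 to 0.064 for Atp5a1, -0.24 to 0.058 for Atp5b, -0.033 to 0.39 for Atp5e, -0.035 to 0.50 for Atp5j, -0.053 to 0.20 for Atp5g1, -0.081 to 0.0068 for Atp5sl, -0.013 to 0.49 for Sdhaf4 and -0.58 to 0.12 for Sdhaf1.

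Under quantile normalization the median of complex II turned to 0.040, and Sdhb and Atp5a1 turned to 0.039 and 0.049. With the exon length trend removed, the medians of complex IV, complex V and all members turned to -0.036, -0.019 and -0.0076, and 37 members were higher. On that scale Cox4i1 turned to -0.045, Cox5a to -0.10, Cox5b to -0.032, Cox6a1 to -0.050, Cox6b1 to -0.026, Cox7a2 to -0.040, Cox7a2l to -0.018, Cox8a to -0.074, Atp5e to -0.021, Atp5g1 to -0.019 and Atp5g3 to -0.0052. The cause of these turns was not tested. Depth limits Cox6b2, with 18 tags in its lowest library, Atp5s, with 96, and Cycs, with 131.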

Other observations

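The genes that build and regulate the complexes differed from the subunits in transcript length. The 49 tested assembly factors had a median exon length of 1187 bases, and ACSS2NLS replicate 1 was the highest library for 29 of them (59.2%), against 24.3% of all genes. The 14 regulators, at 2934 bases, had it highest for 3. With the exon length trend removed, the median log2 change was 0.062 for assembly factors and 0.13 for regulators, against -0.0076 for the subunits and 0.0052 for all genes tested. Nrf1, the transcription factor named for its sites in respiratory promoters, was lower in both ACSS2NLS libraries, at 16.2 and 13.4 FPKM with EV, against 12.2 and 12.7 with ACSS2NLS (-0.23 ± 0.14 on the log2 scale, adjusted p = 0.822 in limma). Tfam, which packages mitochondrial DNA, was at 5.10 and 5.25 FPKM with EV, against 5.91 and 5.62 with ACSS2NLS (0.13 ± 0.13). Both genes were chosen after their values were seen.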
